A study of Mus musculus with 8 samples.

Results

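The 6 mice that received MPTP, out of 8 mice in the series, were compared with the 2 mice that did not. MPTP is a neurotoxin whose metabolite is taken up by dopamine neurons and blocks complex I of their mitochondria. The striatum is the forebrain nucleus to which those neurons project. All mice were male C57BL/6 animals of 6 weeks. Both MPTP-only mice received MPTP in the abdomen at 20 mg/kg every 24 h for 4 weeks. Both mice of the acupoint group received the same MPTP course and 14 needling sessions 48 h apart, at GB34 to a depth of 3 mm and at LR3 to a depth of 1 mm. Both mice of the non-acupoint group received MPTP and the same number of sessions at the hips, to 3 mm. Both control mice received daily saline by the same route over the same 4 weeks and were not needled. Per the labels, needled mice were held by hand. The groups held 9 mice, of which 2 gave striatal RNA for arrays. All MPTP-treated arrays were those whose title names MPTP. For each probe set it was asked whether all 6 of their values lay above, or all 6 below, both control values, and how far.

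Neurons answer synaptic activity with immediate early genes, which are transcribed within minutes without new protein synthesis. The list includes transcription factors such as Fos, Egr1, Nr4a1 and Npas4, the synaptic protein Arc, and phosphatases that shut off MAP kinase signalling. The circadian clock is a feedback loop in which CLOCK and its partner drive the Per, Cry and Nr1d genes through E-boxes, while PAR-domain factors such as Dbp act through D-boxes. Glucocorticoids reach the brain from the adrenal gland, bind the receptors Nr3c1 and Nr3c2 and induce genes such as Fkbp5, Sgk1, Zbtb16 and Tsc22d3.

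Values are deposited RMA log2 intensities, so a difference of 1 is a doubling, and a value cannot be set against that of another probe. Array medians lay between 6.02 and 6.12. Over the tested probe sets, the MPTP-only arrays correlated with each other at 0.950, the acupoint arrays at 0.989, the non-acupoint arrays at 0.989 and the control arrays at 0.995. The 6 MPTP-treated arrays spanned a median range of 0.40, and the 2 controls 0.10. Marker lists of neighbouring tissue moved with single mice. The mean of 10 thalamus markers, relative to the control mean, was 2.46 and -0.69 in the MPTP-only mice, 0.69 and -0.12 in the acupoint mice, 0.20 and 1.56 in the non-acupoint mice, and 0.015 and -0.015 in the controls. The mean of 19 markers of striatal projection neurons was -1.85, 0.32, -0.15, 0.20, -0.15 and -0.59 in the same 6 mice, so MPTP mouse 1 was lowest in striatal and highest in thalamic markers. The mean of 9 cortical excitatory neuron markers lay below both controls in all 6 (-0.51, -0.06, -0.46, -0.48, -0.62 and -0.17). In bulk tissue, fewer cells of a type and less RNA per cell cannot be told apart.

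Of 16342 tested probe sets, all 6 MPTP-treated values lay above both controls for 608 (3.72%) and below both for 581 (3.56%), together 1189 (7.28%) in 1112 genes. The split between directions moved with 1 of 2 other scalings. With arrays centred on their medians the counts were 833 above and 297 below, so 73.7% lay above in place of 51.1%. After a second quantile normalisation they were 704 above and 571 below, or 55.2% above. Limma placed no probe set under an adjusted p of 0.05 (0.0%; the smallest adjusted p was 0.979). At an unadjusted p under 0.05 there were 305 higher (1.87%) and 247 lower (1.51%) probe sets, and 425 of these 552 (3.38%) had all 6 on the same side. The other 127 overlapped the controls, and 764 of the 1189 had an unadjusted p of 0.05 or more. An exact permutation test of 6 mice against 2 has 28 splits and cannot go below a two-sided p of 0.0714. If all splits were equally likely, that would also be the share of probe sets with all 6 on the same side. The share found, 7.28%, is near it, so the count of 1189 by itself shows no effect of MPTP. The limma p comes from the same contrast as the side of the controls, so it orders genes here and is no separate support. Each gene change below is the limma estimate with its standard error (SE), at an adjusted p of 0.979 or more unless another setting is named. The 3 MPTP-treated groups share both control arrays.

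**Figure D1:**
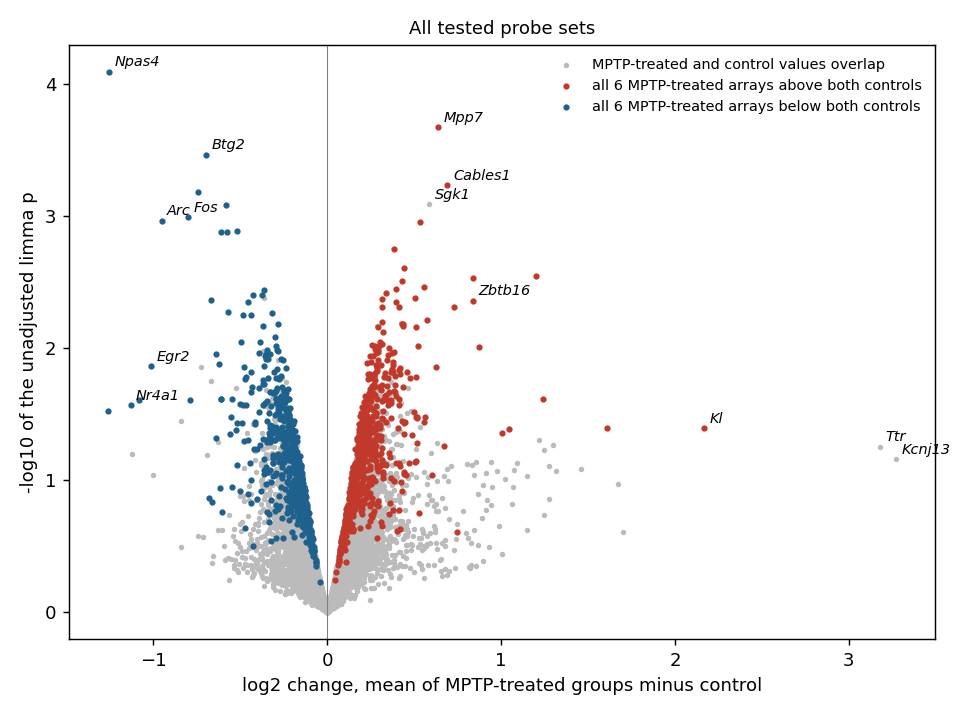
Each point is 1 of the 16342 tested probe sets, with the log2 change (mean of the 3 MPTP-treated groups minus control) on the x axis and -log10 of limma's unadjusted p on the y axis. Red points have all 6 MPTP-treated arrays above both controls (608), blue points all 6 below (581), and grey points overlap; Npas4 is the top blue point at -1.25.

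The margin, the distance between the nearest MPTP-treated and the nearest control value, was small for most of these probe sets. It exceeded 0.1 for 97 higher and 93 lower probe sets, 0.2 for 18 and 26, and 0.3 for 4 and 10. It exceeded 0.5 for 0 higher and 6 lower probe sets. Just inside the rule lay Scrib, Olfr982 and Mafk, with margins of 0.00021 to 0.00025. Just outside lay Atp5j2, Msx1 and Lypd3, whose nearest values were equal. The median absolute change was 0.21 among the 1189 and 0.08 among all tested. A change of at least 1 was reached by 11 of the 1189, against 33 of all tested. Of the genes in question, 103 had another tested probe set (cytosolic ribosomal protein genes, whose probes match many copies, left out). Of those 280 other probe sets, 218 had the same sign and 46 lay on that side with all 6 values.

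Genes of the immediate early list were lower in the MPTP-treated mice. Of 32 measured members, 29 had a lower mean and 3 a higher one, and the median change was -0.32, against 0.0002 over all 14890 genes tested. All 6 mice lay below both controls for 14 members (43.8%, against 3.44% of all genes taken with 1 probe set each) and above for 0. Limma's unadjusted p was under 0.05 for 11 lower members and 0 higher ones (1.51% and 1.81% of all genes, or 3.32% in either direction), and no member passed the adjusted threshold. The promoters of Npas4 and Btg2, the lower genes with the smallest p, are shown because cAMP response elements and serum response elements are the textbook control sites of this gene class. Npas4 is the neuronal factor induced selectively by depolarisation, and Btg2 is an antiproliferative gene induced by growth factors and activity. The windows run 250 bases before to 50 after the start (RefSeq, GRCm38.p6), and capitals mark a cAMP response element, TGACGTCA.
Npas4 (chr19:4989922-4990221, minus strand): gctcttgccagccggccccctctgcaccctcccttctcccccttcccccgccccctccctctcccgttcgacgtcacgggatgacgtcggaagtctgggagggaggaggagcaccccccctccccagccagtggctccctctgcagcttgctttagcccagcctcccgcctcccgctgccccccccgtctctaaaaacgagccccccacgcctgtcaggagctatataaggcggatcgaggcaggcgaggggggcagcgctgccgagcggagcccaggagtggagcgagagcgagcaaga
Btg2 (chr1:134079106-134079405, minus strand): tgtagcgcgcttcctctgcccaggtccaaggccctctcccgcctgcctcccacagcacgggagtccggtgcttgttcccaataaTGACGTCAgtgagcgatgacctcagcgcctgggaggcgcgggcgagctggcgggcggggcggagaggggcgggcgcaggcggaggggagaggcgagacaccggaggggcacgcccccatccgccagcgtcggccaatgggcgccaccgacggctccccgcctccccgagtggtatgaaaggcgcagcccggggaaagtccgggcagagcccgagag

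The Btg2 window holds that element at -166 from the start, and the Npas4 window holds no match to the letters searched. The search took TGACGTCA, the E-box CACGTG, the D-box TTATGTAA and the serum response element on both strands; no element overlaps another in these windows. Windows were at hand for 12 of the 14 genes. Of these, 2 hold a cAMP response element, 2 an E-box, 0 a D-box and 1 a serum response element. Over all 27025 genes with a window the shares are 2.03%, 8.09%, 1.11% and 1.81%, and over the 11809 tested genes with a window 3.29%, 11.1%, 0.737% and 1.56%.

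Npas4 had the largest margin of the lower genes. Its log2 values were 5.95 and 6.55 in the MPTP-only mice, 6.80 and 6.76 in the acupoint mice, 6.99 and 7.09 in the non-acupoint mice, and 7.93 and 7.95 in the controls. All 6 lay at least 0.84 below the nearer control, with the MPTP-only mice lowest. The change was -1.25 (SE 0.15, limma adjusted p = 0.979), or 0.420 times the control level. With array weights, which gave the MPTP-only arrays a low weight of 0.372, the limma adjusted p was 0.026. With the arrays rescaled, or with a mean of tissue markers as a covariate, it did not pass the adjusted threshold. The change was -1.15 without MPTP mouse 1 and -1.35 without MPTP mouse 2.

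Arc, a synaptic protein that promotes the uptake of AMPA receptors, read 7.60 and 8.33 in the MPTP-only mice, 8.67 and 8.65 in the acupoint mice, 8.77 and 8.61 in the non-acupoint mice, and 9.41 and 9.36 in the controls. All 6 MPTP-treated values lay below both controls, and the change was -0.95 (SE 0.18). Fos, the AP-1 subunit, read 6.86 and 6.65, 7.0 and 6.48, and 6.74 and 6.92 in the same 3 groups, against 7.56 and 7.58 in the controls. Unlike Arc, its 3 group changes were close to each other (-0.82, -0.83 and -0.74), and the mean change was -0.80 (SE 0.15). Btg2 lay between 6.21 and 6.57 in the 6 mice (median 6.44), against 7.16 and 7.04 in the controls, a change of -0.70 (SE 0.11). Dusp1, a MAP kinase phosphatase, lay between 8.48 and 8.89 (median 8.64), against 9.20 and 9.29, a change of -0.58 (SE 0.10).

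For other members 1 mouse set much of the size. Nr4a1, an orphan nuclear receptor, read 7.90 in MPTP mouse 1 and 9.57 to 9.75 in the other 5 treated mice, against 10.48 and 10.51 in the controls. The change of -1.13 (SE 0.40) was -0.83 without MPTP mouse 1. Egr2, a zinc finger factor, read 5.51 in MPTP mouse 1 and 6.86 to 7.04 in the others, against 7.61 and 7.82 in the controls. Its change was -1.01 (SE 0.31), and -0.79 without that mouse. The remaining members with all 6 below were Ccn1 (-0.57), Egr4 (-0.47), Junb (-0.44), Fosb (-0.55), Egr1 (-0.50), Fosl2 (-0.36) and Dusp6 (-0.17). Without MPTP mouse 1, Egr1 was at -0.31 and Fosb at -0.35. With the choroid plexus covariate Egr1 was at -0.07, Fosb at -0.10, Fosl2 at -0.16, Junb at -0.23 and Egr4 at -0.28. The 3 members with a higher mean overlapped the controls, among them Bdnf, the neurotrophin, at 0.19 (SE 0.17), and Nptx2, a pentraxin of synapses, at 0.10 (SE 0.12). Egr4, Junb, Fosb, Egr1, Fosl2, Dusp6, Bdnf and Nptx2 were named after their values were seen, as were Per3, Nr1d1, Hlf, Cry2, Clock, Per2, Rora, Arntl, Nr3c1, Nr3c2, Nfe2l2 and Slc17a7 below.

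**Figure D2:**
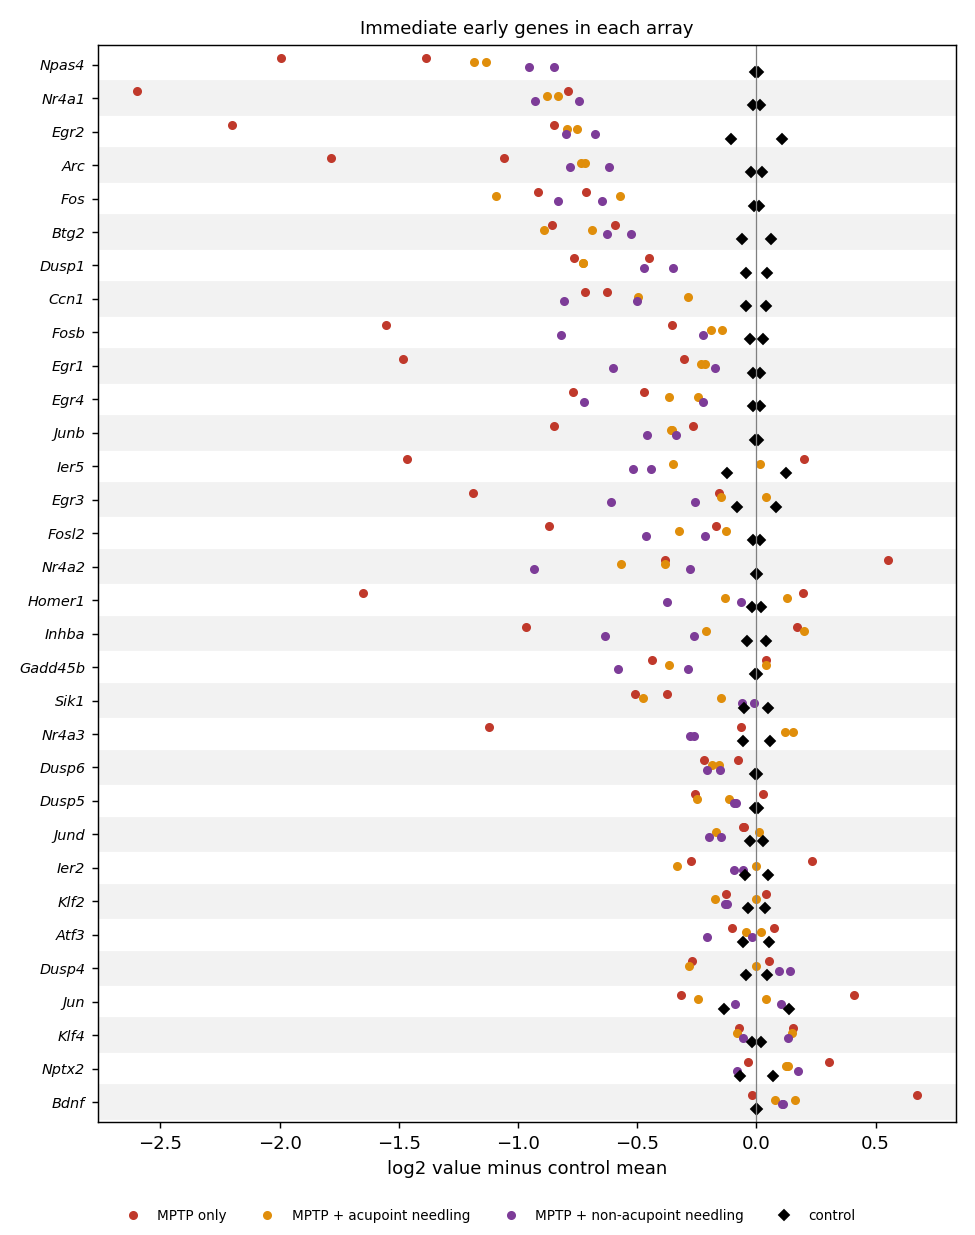
Each row is 1 of 32 immediate early genes, ordered by mean change, and the x axis is the log2 value minus the mean of the 2 controls. Circles are the 6 MPTP-treated arrays by group and diamonds the controls; for Npas4, Nr4a1, Egr2, Arc and Fos, all circles lie left of both diamonds by more than 0.5.

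The mean of the 32 genes was -0.71 and -0.31 in the MPTP-only mice, -0.26 and -0.31 in the acupoint mice, -0.30 and -0.39 in the non-acupoint mice, and within 0.01 of 0 in the controls. Without MPTP mouse 1, the count with all 5 remaining mice below was 15 and the median change -0.18. Over all 14890 genes the count below rose from 512 to 812, since fewer values must then lie below. With the mean of the cortical markers as a covariate, 7 members were lower and 1 higher at a limma p under 0.05. Of all 14890 genes, 356 were lower and 155 higher in that setting. The median of the list was -0.18. Under that covariate the changes were -0.95 for Npas4, -0.71 for Arc, -0.79 for Fos, -0.85 for Btg2, -0.44 for Nr4a1 and -0.48 for Egr2. The part of cortical tissue in the list's shift was not tested.

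Clock genes were higher in the MPTP-treated mice. Of 18 measured members 15 had a higher mean and 3 a lower one, with a median of 0.21. All 6 mice lay above both controls for 9 (50%, against 3.74% of all genes) and below for 0, and 6 were higher at a limma p under 0.05. Those 9 were Bhlhe41, Nr1d2, Ciart, Dbp, Per3, Nr1d1, Hlf, Cry2 and Clock. The promoter of Bhlhe41, a repressor of the clock also called Dec2, is shown because it had the smallest p of the list and holds an E-box, CACGTG, in capitals at -153.
Bhlhe41 (chr6:145865371-145865670, minus strand): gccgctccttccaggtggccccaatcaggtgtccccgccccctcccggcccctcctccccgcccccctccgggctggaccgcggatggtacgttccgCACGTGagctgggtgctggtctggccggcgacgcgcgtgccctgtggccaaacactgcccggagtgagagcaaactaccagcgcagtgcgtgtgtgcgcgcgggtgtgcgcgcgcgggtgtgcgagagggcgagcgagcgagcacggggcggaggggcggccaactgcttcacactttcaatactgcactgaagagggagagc
All 9 genes had a window: 2 hold an E-box, 1 a D-box, 1 a cAMP response element and 0 a serum response element, beside the shares over all genes given above.

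Bhlhe41 read 8.98 and 8.82 in the MPTP-only mice, 8.85 and 8.82 in the acupoint mice, 8.93 and 9.11 in the non-acupoint mice, and 8.39 and 8.59 in the controls. The nearest values lay 0.23 apart, and the change was 0.43 (SE 0.10). Ciart, a clock repressor also called Chrono, read 8.56 and 8.08, 8.02 and 8.29, and 7.99 and 8.38 in the same groups, against 7.69 and 7.73 in the controls. Its change was 0.51 (SE 0.16), and all 6 mice were above both controls on its other probe set too, with a change of 0.37. Dbp read 9.34 and 9.82, 9.58 and 9.79, and 9.63 and 9.68, against 9.26 and 9.23, a change of 0.40 (SE 0.14); MPTP mouse 1 lay nearest the controls.

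The repressor Nr1d2, also called Rev-erb beta, lay between 9.66 and 10.05 (median 9.84), against 9.37 and 9.57 in the controls, a change of 0.39 (SE 0.12). The changes of the other 5 genes were small: 0.21 for Per3, 0.20 for Nr1d1, 0.21 for Hlf, 0.10 for Cry2 and 0.08 for Clock. With the choroid plexus covariate Hlf was at 0.04 and Clock at 0.03. Per2 had 5 mice between 7.01 and 7.18, above the controls at 6.65 and 6.63, while MPTP mouse 1 read 6.62. The largest mean change of the list was that of Rora, 0.68 (SE 0.62), which came from MPTP mouse 1 at 10.78 and non-acupoint mouse 2 at 9.69, the mice with the highest thalamus marker means. Arntl, the partner of CLOCK, was at -0.13 (SE 0.13) and overlapped. Array means of the list were 0.37, 0.16, 0.18, 0.20, 0.20 and 0.36, and within 0.01 of 0 in the controls. With 1 control left out in turn the list median was 0.22 in each case, but 1 control gives no spread between control mice. After a second quantile normalisation 7 members had all 6 above. Over all 14890 genes that count was 642 in that setting, against 557 in the main one.

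Glucocorticoid targets were higher on balance, and the members above both controls were so by narrow margins. The list mean was 0.29 and 0.08 in the MPTP-only mice, 0.25 and 0.22 in the acupoint mice, and 0.15 and 0.20 in the non-acupoint mice. It was -0.02 and 0.02 in the controls. Of 17 measured genes 14 had a higher mean and the median was 0.21, while all 6 mice lay above both controls for 3 (17.6%, against 3.74% of all genes) and below for 1 (5.88%, against 3.44%). At a limma p under 0.05, 4 were higher and 0 lower (1.81% and 1.51% of all genes). The median was 0.09 without MPTP mouse 1, 0.07 with the thalamus covariate and 0.03 with the choroid plexus covariate. Zbtb16, a zinc finger repressor, read 8.01 and 7.26 in the MPTP-only mice, 7.92 and 7.85 in the acupoint mice, 8.13 and 8.47 in the non-acupoint mice, and 6.99 and 7.22 in the controls. Its margin was 0.04, set by MPTP mouse 2, and the change was 0.84 (SE 0.20). Fkbp5, a co-chaperone that dampens the receptor, was higher by 0.25 (SE 0.10) with a margin of 0.005, and Klf9, a Krüppel-like factor, by 0.27 (SE 0.12). Ddit4, an inhibitor of mTORC1, was the member below both controls, at -0.17 (SE 0.08).

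Sgk1, a kinase that regulates ion channels, had a pattern of its own. It read 9.84 and 9.77 in the MPTP-only mice, 9.98 and 9.82 in the acupoint mice, 8.83 and 9.06 in the non-acupoint mice, and 8.86 and 9.07 in the controls. Non-acupoint mouse 1 lay just below both controls, non-acupoint mouse 2 between them, and the other 4 mice above both. Limma's moderated F-test over the 3 MPTP-treated groups gave an adjusted p of 0.790 for Sgk1. The receptor genes Nr3c1 (0.09, SE 0.10) and Nr3c2 (-0.14, SE 0.14) overlapped the controls.

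**Figure D3:**
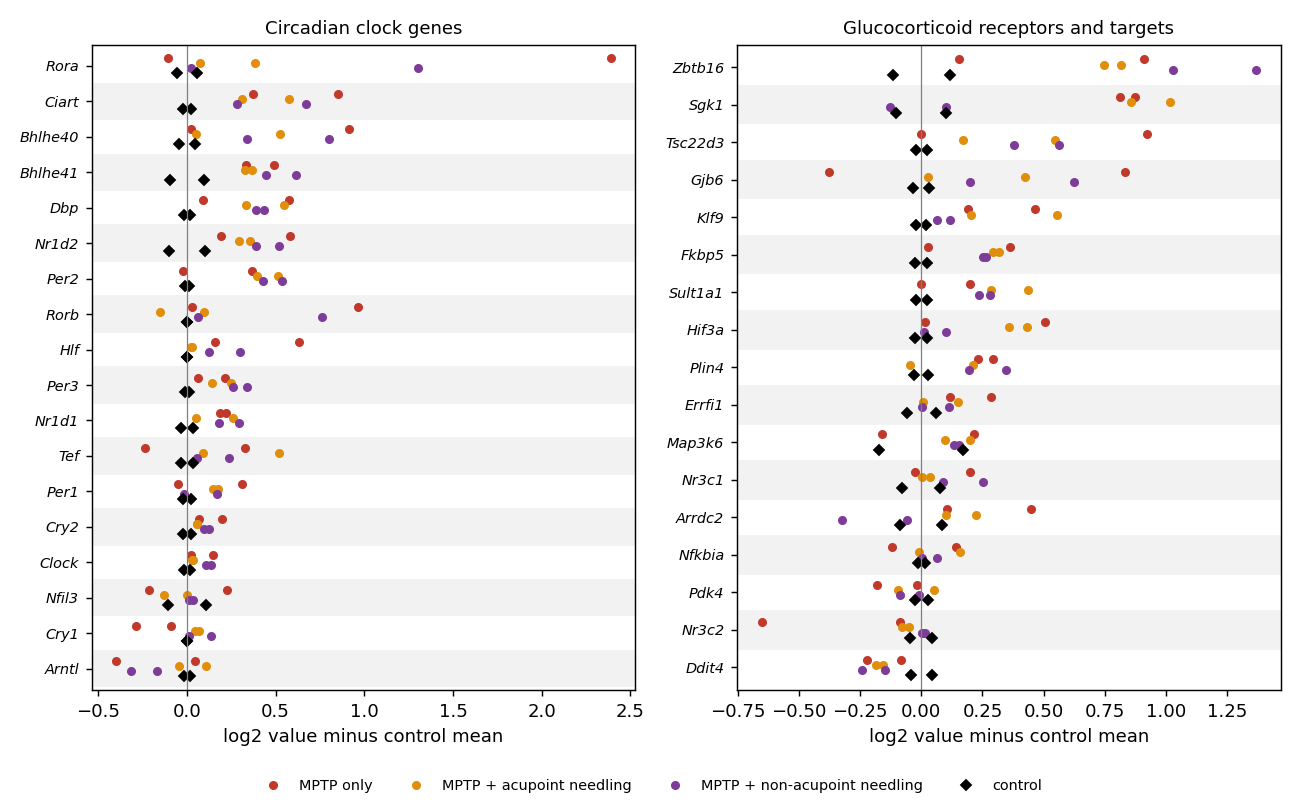
Rows are 18 clock genes (left) and 17 glucocorticoid genes (right), ordered by mean change, with the log2 value minus the control mean on the x axis; circles are MPTP-treated arrays by group and diamonds controls. Bhlhe41, Ciart, Dbp and Nr1d2 have all 6 circles right of both diamonds, while Sgk1 has both non-acupoint circles at control level.

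The higher gene with the smallest p was Mpp7, a scaffold of cell junctions. It read 8.18 and 8.35 in the MPTP-only mice, 8.48 and 8.51 in the acupoint mice, 8.39 and 8.42 in the non-acupoint mice, and 7.65 and 7.85 in the controls, a change of 0.64 (SE 0.09). Its lowest treated value lay 0.33 above the higher control. Cables1, which links cyclin-dependent kinases to Abl, read 7.30 and 7.09, 7.29 and 7.34, and 7.44 and 7.80 in those groups, against 6.70 and 6.67, with the widest margin of the higher genes at 0.40 and a change of 0.69 (SE 0.12). Apart from the clock and glucocorticoid genes described above, the next by p were Cep350, a centrosomal protein (0.54), Jmy, an actin nucleator (0.39), Swt1 (0.44), Inmt, an indole N-methyltransferase (0.84), and Tns2, a focal adhesion protein (0.56). Cep350 had 6 tested probe sets, all higher, of which 4 overlapped. After them came Bloc1s3 (0.40), Mul1 (0.34), Banp (0.51), Fras1 (0.32), Tbc1d4 (0.40) and Xdh, xanthine dehydrogenase (0.41). The metalloprotease Adamts15 was named for its margin of 0.36, but its change of 0.67 (SE 0.29) was widened by MPTP mouse 1 at 6.83, with the other 5 between 5.58 and 5.94, against 5.22 in both controls.

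Lower genes outside the immediate early list were led by Tmem178, an endoplasmic reticulum protein. It lay between 8.02 and 8.49 in the 6 mice (median 8.38), against 9.02 and 9.16 in the controls, a change of -0.74 (SE 0.13). Satb1, a chromatin organiser, lay between 8.54 and 8.88 (median 8.78), against 9.23 and 9.28, a change of -0.52 (SE 0.10). Both were thus clear of the controls by 0.53 and 0.35. Others were Tceal6 (-0.61), the raft protein Flot2 (-0.36), the ESCRT-III subunit Chmp6 (-0.43), H2-M10.3 (-0.67), the myosin light chain Myl4 (-0.45), Dlc1 (-0.37) and the snoRNA host Gas5 (-0.57). Dlc1 had a second probe set at 0.30, which overlapped, and Gas5 had others at -0.13 and -0.45, both overlapping.

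**Figure D4:**
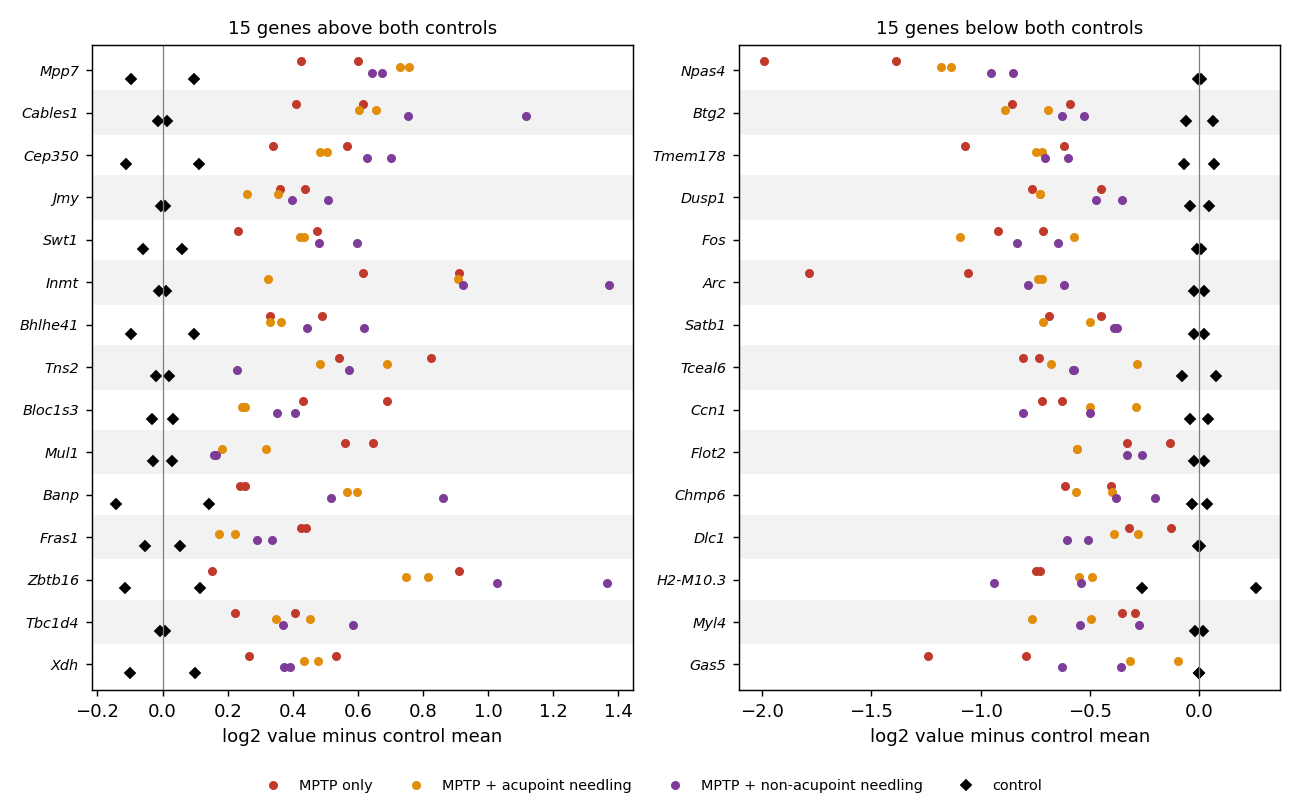
Rows are the 15 higher (left) and 15 lower (right) genes with the smallest limma p among those with all 6 MPTP-treated arrays on the same side of both controls, with the log2 value minus the control mean on the x axis. Circles are MPTP-treated arrays by group and diamonds controls; the margin is widest for Cables1 on the left (0.40) and Npas4 on the right (0.84).

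Antioxidant genes gave few members. Of 18 measured, 12 had a higher mean, and the median was 0.06. All 6 mice lay above both controls for 2 (11.1%, against 3.74% of all genes). Nqo1, a quinone reductase, read 6.72 and 6.41, 6.54 and 6.40, and 6.39 and 6.86 in the MPTP-only, acupoint and non-acupoint mice, against 6.11 and 6.12 in the controls, a change of 0.44 (SE 0.15). Srxn1, sulfiredoxin, had a change of 0.20 (SE 0.13) and a margin of 0.006. Nfe2l2, the factor Nrf2 that drives both, read 8.04 and 7.97, 8.16 and 8.22, and 8.38 and 8.72, against 7.70 and 7.92, a change of 0.44 (SE 0.11). Its non-acupoint mice were highest (F-test adjusted p = 0.890). With the choroid plexus covariate Nqo1 was at 0.25.

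Genes tied to dopamine neurons showed no such separation. Of 10 measured genes of dopamine synthesis, transport and breakdown, 8 had a higher mean, 0 had all 6 mice on the same side, and the median was 0.08. Th, tyrosine hydroxylase, read 6.66 and 7.10, 6.65 and 7.35, and 6.92 and 6.45 in the MPTP-only, acupoint and non-acupoint mice, against 6.73 and 6.80 in the controls, so 3 of the 6 lay below both. Slc6a3, the dopamine transporter, lay between 5.65 and 6.77, against 5.95 and 5.54 in the controls. The bodies of these neurons lie in the midbrain, so the striatum holds little of their RNA. Of 10 familial parkinsonism genes, Park7 alone had all 6 above, by 0.09 (SE 0.07).

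The receptors and peptides of striatal projection neurons were lowest in MPTP mouse 1. All 19 measured markers had a lower mean (median -0.33), yet for 0 of them did all 6 mice lie below both controls. The median was -0.0001 without MPTP mouse 1, 0.06 with the thalamus covariate, 0.53 with the choroid plexus covariate and 0.37 with the cortical covariate. Drd1, the D1 dopamine receptor, read 7.93 and 10.68 in the MPTP-only mice, 10.16 and 10.41 in the acupoint mice, 10.15 and 9.61 in the non-acupoint mice, and 10.29 and 10.32 in the controls. Ppp1r1b, the phosphatase inhibitor DARPP-32, had a change of -0.51 (SE 0.60), the enkephalin gene Penk -0.32 (SE 0.45) and Drd2 -0.30 (SE 0.55). Among 10 interneuron markers, Lhx8 had all 6 below (-0.44, SE 0.23). Among cortical markers the same held for Fezf2 (-0.62, SE 0.19), 1 of 9 (11.1%, against the same 3.44%). With the choroid plexus covariate Lhx8 was at -0.14, and with the cortical covariate Fezf2 was at -0.31.

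Choroid plexus markers had the largest changes of any list, in some of the mice. All 15 measured had a higher mean (median 1.28), and 3 had all 6 above both controls (20.0%, against 3.74% of all genes). The list mean was 2.11 and -0.21 in the MPTP-only mice, 2.22 and 0.08 in the acupoint mice, 2.00 and 2.75 in the non-acupoint mice, and 0.04 and -0.04 in the controls. Kl, which encodes klotho, read 8.55 and 5.84, 8.67 and 5.96, and 8.37 and 9.17, against 5.64 and 5.55, a change of 2.17 (SE 0.86), with MPTP mouse 2 and acupoint mouse 2 nearest the controls. F5 had a change of 1.61 (SE 0.64) with a margin of 0.009, and Clic6 1.05 (SE 0.42) with a margin of 0.003. Ttr, transthyretin, overlapped at 3.18 (SE 1.38). With the choroid plexus mean as a covariate, the direction turned for 29 of the 1189 probe sets. With the cortical mean it turned for 36, and with the thalamus mean for 0. None of those with a limma p under 0.05 turned under any of the 3. They were chosen in the same arrays for a change that was large beside its spread. A turn was thus unlikely beforehand, and its absence is no separate support.

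Vascular and glial lists were mixed. Of 18 endothelial and pericyte genes, 9 had a higher and 9 a lower mean. All 6 mice lay above both controls for Mfsd2a, a lipid carrier of the blood-brain barrier (0.46, SE 0.14), the glucose transporter Slc2a1 (0.23, SE 0.09) and the channel subunit Abcc9 (0.28, SE 0.13). They lay below for the tight junction gene Cldn5 (-0.35, SE 0.10). These were 16.7% of the list above and 5.56% below, against 3.74% and 3.44% of all genes. With the cortical covariate Mfsd2a was at 0.19 and Abcc9 at 0.10. Of 19 microglial genes 15 had a lower mean (median -0.11). Aif1 (-0.26, SE 0.12) and Ctss (-0.14, SE 0.10) had all 6 below (10.5%, against 3.44% of all genes). The list median was -0.01 without MPTP mouse 1, 0.12 with the choroid plexus covariate and 0.19 with the cortical covariate, under which Aif1 was at -0.0009. Among 15 astrocyte genes the bicarbonate carrier Slc4a4 had all 6 above (0.11, SE 0.07), a share of 6.67% against 3.74% of all genes. Gfap overlapped at 0.06 (SE 0.22). Oligodendrocyte (18 genes) and ependymal (12 genes) lists had 0 such members, and Mbp was at 0.03 (SE 0.09). None of the 7 red blood cell genes was among the tested probe sets.

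**Figure D5:**
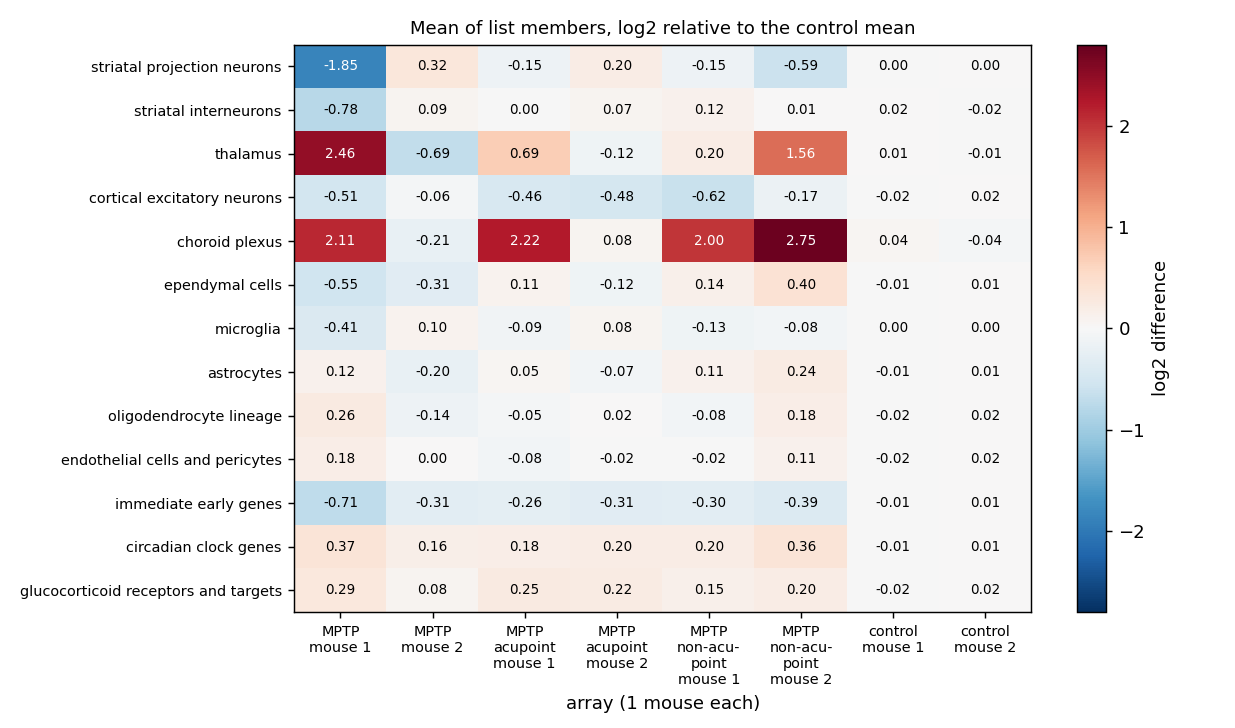
Each cell is the mean over the measured genes of a list in 1 array, as the log2 value minus the control mean, with MPTP-treated arrays in the 6 columns on the left and controls in the 2 on the right. Immediate early genes are below both controls in all 6 (-0.26 to -0.71) and clock genes above (0.16 to 0.37), while thalamus and choroid plexus markers differ between mice of the same group.

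The other lists had few such members. Heat shock chaperones (18 genes, median 0.01), endoplasmic reticulum stress genes (18), inflammatory mediators (11, median -0.03) and interferon-stimulated genes (14, median 0.03) had 0 members with all 6 on the same side. Of 72 respiratory chain subunits, 4 lay above (5.56%, against 3.74% of all genes) and 3 below (4.17%, against 3.44%), shares near the background, among them Ndufc1 (0.19) and Cox5a (0.26) above, and Atp5g2 (-0.22) and Ndufa8 (-0.19) below. Of 74 mitochondrial ribosomal genes 3 lay above (4.05%) and 1 below (1.35%), near or under the shares of all genes, with Mrps27 at 0.26. Of 57 cytosolic ribosomal genes 41 had a lower mean and 4 had all 6 below (7.02%, against 3.44% of all genes). Rpl9 was at -0.16 and Rps20 at -0.17. Of 36 proteasome subunits Psmc2 lay below (-0.09), and of 33 small nucleolar RNAs and hosts Snord55 did (-0.18). Those shares, 2.78% and 3.03%, were near that of all genes. Of 15 cholesterol genes Lss lay above (0.17), a share of 6.67% against 3.74% of all genes.

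Receptor families had isolated members. Of 31 peptide receptors, 23 had a lower mean and 3 were lower at a limma p under 0.05 (1.51% of all genes), while 1 lay above and 1 below with all 6 (3.23% each, near the shares of all genes). The cholecystokinin receptor Cckbr lay below the controls (-0.52, SE 0.21), and was at -0.11 with the cortical covariate. Vipr2 lay above, with a change of 0.75 (SE 0.59) that came from MPTP mouse 1 at 7.53 and non-acupoint mouse 2 at 6.35, against 5.08 and 5.0 in the controls. Of 36 GABA and glutamate receptor subunits, Gabbr1 lay above (0.11), and Gabra5 (-0.25) and Grm7 (-0.11) below. Those shares were 2.78% and 5.56%, against 3.74% and 3.44% of all genes. Of 17 neurotrophic genes, Gfra1 and Gfra2, receptors of the GDNF family, lay below, at -0.36 (SE 0.18) and -0.35 (SE 0.15). They made up 11.8% of the list, against 3.44% of all genes.

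Whether the 3 MPTP-treated groups differed among themselves was asked with a moderated F-test in the same model. No probe set passed the adjusted threshold (0.0%), and 698 (4.27%, or 4.21% of genes with 1 probe set each) had an unadjusted p under 0.05. Among the 1189 probe sets with all 6 on the same side, 30 did (2.52%); that rule favours probe sets with little spread among the treated mice. The change of Npas4 was -1.69 in the MPTP-only group, -1.16 in the acupoint group and -0.90 in the non-acupoint group (F-test adjusted p = 0.890). Mul1, a mitochondrial ubiquitin ligase, read 8.94 and 8.86 in the MPTP-only mice and 8.46 to 8.62 in the needled mice, against 8.33 and 8.27 in the controls (F-test adjusted p = 0.890). Gas5 was lowest in the MPTP-only mice (-1.02, against -0.21 and -0.49 in the acupoint and non-acupoint groups), and Slc17a7, the vesicular glutamate transporter of cortical neurons, was at 0.18 in the MPTP-only group, -1.44 in the acupoint group and -1.74 in the non-acupoint group (F-test adjusted p = 0.890). These group values share the controls and passed no adjusted test.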

How the data were processed

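Striatal RNA of 8 mice was measured on whole-transcript arrays, 1 per mouse, from 300 ng of RNA per the labels' protocols. The deposited values are log2 intensities that the authors made with Affymetrix Expression Console and RMA, per the submitters' processing notes, which give no version. They were used as deposited. Quantile normalisation within RMA hides a shift common to most genes.

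Of 35557 probe sets, 21789 had 1 gene symbol in the platform table and 12147 had none. Tested probe sets had exactly 1 symbol and a mean of at least 5.25, the 25th percentile, which left 16342. Limma 3.58.1 in R 4.3.3 fitted 4 groups in 1 model and contrasted the mean of the MPTP-treated groups with control, adjusted by Benjamini-Hochberg at 0.05. With 8 arrays, their number limits the precision. Lists used the probe set with the highest mean per gene and no set test. The 30 lists, the members and the naming rule were chosen with earlier results of these data known. The rule took 15 genes per direction by p, 5 by margin, up to 4 per list and some fixed genes. Promoter windows came from RefSeq (GRCm38.p6). Alternatives were other filters, shrinkage, array weights, scalings, marker covariates, a replicate block and leaving out arrays.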

Additional observations from a re-analysis of the deposited data

Results flagged for a closer look

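MPTP mouse 1 stood apart from the other 5 MPTP-treated mice, by a gap to its nearest neighbour beyond Dixon's critical value for 6 samples, in every gene and list named in this paragraph. Chance flags about 1 in 20 groups. The check covered the 102 named genes and the means of 29 lists. All these flags come from the same mouse, so they are not separate and cannot be set against that rate. It was the lowest of the 6 for Tmem178 (8.02), Egr2 (5.51), Per2 (6.62), Junb (6.41), Nr4a1 (7.90), Fkbp5 (8.09), Lhx8 (6.56), Egr1 (7.62), Gabra5 (8.41), Ppp1r1b (8.97) and Penk (11.32). It was the highest for Adamts15 (6.83), Cox5a (10.51), Abcc9 (7.40) and Mrpl34 (7.91). The mean of the immediate early genes was -0.71 in that mouse relative to the control mean, and that of the striatal interneuron markers -0.78.

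Slc17a7 lay above both controls in both MPTP-only mice and below them in all 4 needled mice, with a mean change of -1.003. MPTP mouse 2 lay only just above the controls, which both read 9.47. The acupoint mice read 7.77 and 8.28, and the non-acupoint mice 6.61 and 8.84. With the cortical covariate the change of Slc17a7 was -0.18. The part of cortical tissue in its pattern was not tested. The F-test over the 3 treated groups gave a limma adjusted p of 0.890, and MPTP alone against needling was not tested on its own.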

How the results depend on the processing

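The count at an adjusted p under 0.05 was 0 in all settings except array weights (1, Npas4), and 0 to 70 with 1 mouse left out. It was 70 without MPTP mouse 2, where 11 were higher and 59 lower, 1 without MPTP mouse 1, and 2 without MPTP mouse 1 and non-acupoint mouse 2 together. Without MPTP mouse 2, MPTP mouse 1 was the only array of its group and gave no spread. In that fit the median change was -0.70 for striatal projection neuron markers and 1.11 for thalamus markers. Whether its calls follow MPTP or the tissue of that mouse was not tested. Array weights were 0.372 for the MPTP-only arrays, 1.17 for the acupoint, 1.24 for the non-acupoint and 1.85 for the control arrays.

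At an unadjusted p under 0.05 the count of 552 became 829 with unnamed probe sets, 1162 with array weights, 983 with the thalamus covariate and 963 with the choroid plexus covariate. Higher probe sets (305) became 649 with array weights, 534 with the thalamus and 177 with the cortical covariate. Lower ones (247) became 455 with unnamed probe sets, 513 with array weights, 115 with median centring, 449 with the thalamus, 517 with the choroid plexus and 398 with the cortical covariate. Without both of those mice they were 400. With 1 mouse left out the ranges were 169 to 2705, 89 to 1391 higher and 80 to 1314 lower; the extremes were without control mouse 1 and without MPTP mouse 2. Probe sets with all treated mice above ranged over 665 to 2232 and below over 664 to 1958, with the most without control mouse 2. Without both named mice they were 1069 and 1207. Leaving out a mouse can only add to these counts, since fewer values must then lie on the same side. Median centring gave 297 below. The F-test count at the adjusted threshold ranged over 0 to 698, the highest without MPTP mouse 2. The causes of the other shifts were not tested.

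Same-numbered mice do not share a source in the labels, and their deviations correlated at between -0.49 and 0.40 over pairs of groups, so the numbers do not pair the samples. With the number as a block, 0 passed the adjusted threshold and 459 the unadjusted one.

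The cortical covariate was added after the data were seen. Of 2136 recomputed values of 102 named genes, 2090 kept direction and side of the threshold, 16 newly passed it and 30 reversed, in 11 genes. Of the 88 genes with all 6 on the same side, 3 values reversed. The values that newly passed the threshold were those of Npas4 or came from the fit without MPTP mouse 2. With the choroid plexus covariate the changes were 0.0016 for Ctss, -0.55 for Tcf7l2, -0.14 for Vipr2, 0.53 for Ppp1r1b, 0.55 for Drd1, 0.46 for Penk, 0.68 for Drd2 and -0.32 for Gfap. With the cortical covariate they were 0.15 for Gabra5, -0.074 for Slc6a3, 0.41 for Ppp1r1b, 0.44 for Drd1, 0.37 for Penk, 0.54 for Drd2 and -0.017 for Gfap. With the thalamus covariate they were 0.0069 for Ppp1r1b, 0.041 for Drd1, 0.064 for Penk, 0.16 for Drd2 and -0.11 for Gfap. With 1 mouse left out, Penk ranged over -0.65 to 0.014 and Drd2 over -0.70 to 0.096, both between leaving out MPTP mouse 2 and MPTP mouse 1, Gfap over -0.0545 to 0.18 (without MPTP mouse 1 and 2; -0.017 without non-acupoint mouse 2) and Th over -0.027 to 0.21 (without acupoint mouse 2 and 1). Without it and non-acupoint mouse 2 they were 0.021 for Ppp1r1b, 0.063 for Drd1, 0.070 for Penk, 0.16 for Drd2 and -0.14 for Gfap.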
